A study of Mus musculus with 12 samples.

Results

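The 166 genes described here changed in opposite directions in a pair of drug-resistant mouse leukaemia lines, as part of the 1896 genes whose change differed between the lineages. They were found among 18193 genes on all 12 arrays of the series. For each gene the change from parental to resistant line was taken in the B117 lineage and in the B140 lineage, and the contrast was (B140H minus B140P) minus (B117H minus B117P). A gene was counted as opposite when both changes and their difference were called and the changes had opposite signs, so the signs and sizes of these genes describe the selection and are not evidence for it. Called means an adjusted p under 0.05 in limma (Benjamini-Hochberg over all probe sets), and a log2 change of 1 is a doubling.

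The 4 lines are murine leukaemia lines from BXH-2 mice. B117P and B140P are Ara-C-sensitive parental lines, and B117H and B140H are the highly Ara-C-resistant lines derived from B117P and B140P, so each lineage is represented by 1 resistant line. All 4 lines carry the same growth and treatment text, passage in ASM medium without Ara-C and exposure to rising Ara-C concentrations, and no label states a dose or a time. Each line had 3 arrays of total RNA, lettered A, B and C, and nothing says that these came from separate cultures. All p-values therefore refer to the spread among these arrays, which may be technical. The question put to the contrast was whether both lineages changed the same genes in the same way on the path to resistance.

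Ara-C (cytarabine) is a nucleoside drug of acute myeloid leukaemia. It is taken up by nucleoside transporters, receives its first phosphate from deoxycytidine kinase and, as a triphosphate, ends the growing DNA chain. Leukaemic cells of the myeloid lineage keep parts of the programme of blood progenitors, in which the transcription factors Gfi1 and Irf8 steer granulocytic and monocytic maturation and granule proteins are made in sequence. Some also express genes of early lymphoid cells, such as Dntt and Vpreb1.

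Array medians lay between 118 and 131 intensity units. Across probe sets, arrays of 1 line correlated at 0.988 to 0.9967, arrays of 1 lineage at 0.9801 to 0.9932, and those from both lineages at 0.9536 to 0.9668. Array B of B140H stood apart, with the highest median and a lower quartile of 58.6 units, and without it 137 genes were opposite. The myeloid and blood cell markers Ctsg, Prtn3, Ptprc and Myb stood at mean log2 levels of 12.08 or more in every line, against a median of 6.94 over all probe sets. Of the other myeloid markers on the list, Spi1, Cebpa, Csf1r and Csf2rb were at 10.03 or more in every line. Itgam was low, at 6.02 to 7.95, as was Fcgr3, at 6.56 to 8.45. Elane was at 10.77 in B117P and 9.13 in B117H but at 7.02 in B140P and 7.18 in B140H. Mpo, the peroxidase of primary granules, was at 14.62 in B117P but 7.13 in B140H. The progenitor markers Kit and Cd34 were at 10.11 or more in both B117 lines and at 5.53 or less in both B140 lines. Col1a1, Cdh5 and Alb, markers of other tissues, lay at 6.31 to 6.71, Cd3e at 7.42 to 7.72 and Epcam at 8.28 to 8.43, and no detection calls came with the values. In bulk RNA, fewer cells of a type and less RNA per cell cannot be told apart.

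The difference between the changes was called for 1896 genes, which is 10.4% of those tested. The B140 change lay above the B117 change for 894 of them (4.91%) and below it for 1002 (5.51%). The 166 opposite genes were 0.912% of all genes. Of these, 65 rose in B140H and fell in B117H (0.357%), and 101 fell in B140H and rose in B117H (0.555%). By comparison 107 genes (0.588%) were called in the same direction in both pairs, 59 of them upward and 48 downward, so that of the 273 genes called in both pairs 166 went opposite ways. Each pair on its own had 1712 called genes in B117H (9.41%) and 1194 in B140H (6.56%). Across all 18193 genes the changes of the lineages had a Pearson r of -0.082 and a Spearman rho of -0.115. The pairs share no array, and genes are not independent replicates, so these values describe the libraries only.

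**Figure D1:**
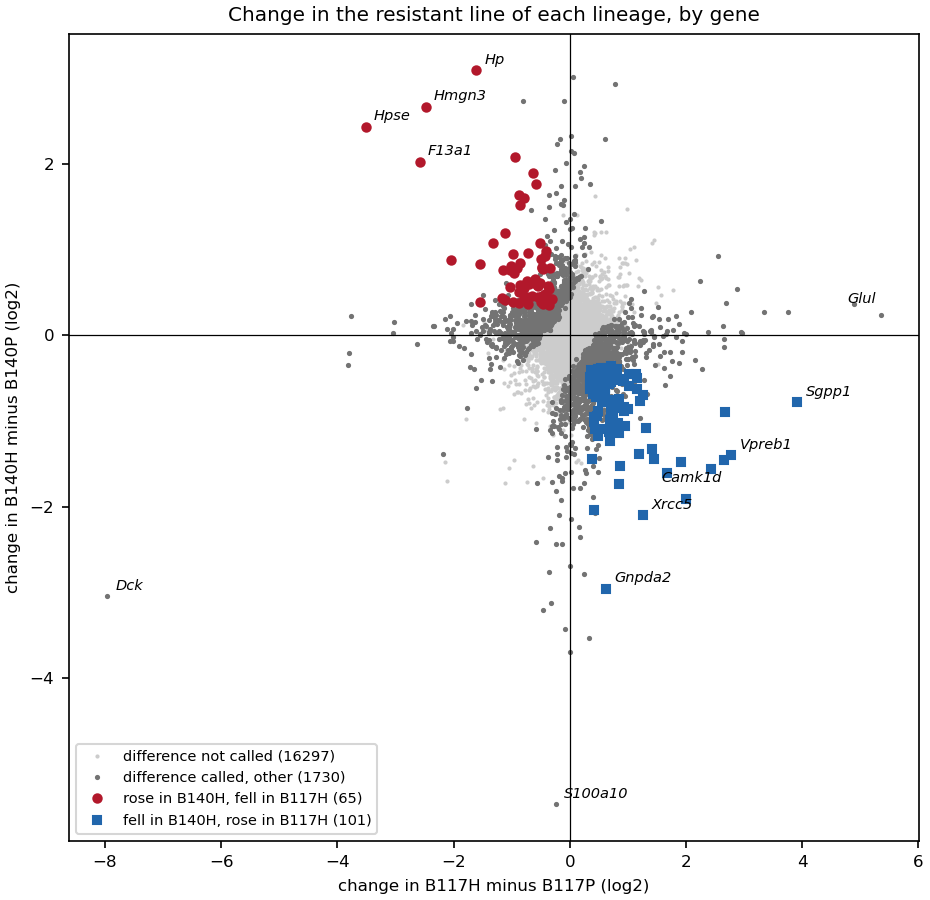
Log2 change of every gene in B117H minus B117P (horizontal) against B140H minus B140P (vertical). Light grey points are the genes whose difference was not called, dark grey points are other called differences, circles are the 65 genes that rose in B140H and fell in B117H, and squares are the 101 genes that did the reverse. Hpse, Hmgn3, Hp and F13a1 lie far into the upper left and Sgpp1, Vpreb1, Camk1d, Xrcc5 and Gnpda2 into the lower right, while Dck fell in both.

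Most opposite changes were modest. Both changes were under 2-fold for 108 of the 166 genes and at least 2-fold for 17, of which 6 rose in B140H and 11 fell there. The median size of the change was 0.70 in B117H and 0.65 in B140H, against 0.11 and 0.12 over all genes. The larger of both changes was in B117H for 81 genes and in B140H for 85. In 165 of the 166 genes the arrays of the resistant line did not overlap those of the parental line in either pair, the exception being Klrd1. Over all genes such separation in opposite directions occurred for 997 (5.48%), and in the same direction for 711 (3.91%). The count of 166 fell to 107 without B117H B, 98 without B140P A, 104 without B140P B and 91 without B140P C, and the difference itself stayed called for all 166 in each fit that left out 1 array.

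Hpse, which encodes heparanase, the enzyme that cleaves heparan sulfate chains, had the largest difference. It measured 795, 1100.2 and 1137 intensity units on arrays A, B and C of B117P and 78.4, 93.8 and 87.8 on those of B117H. In the B140 lineage it measured 249, 250.2 and 283 units in B140P and 1749, 1131 and 1429 in B140H. All B117H arrays thus lay below all B117P arrays, all B140H arrays lay above all B140P arrays, and none came near the other line of its pair. The changes were -3.51 and 2.44 and their difference was 5.95 (SE 0.23, 95% interval 5.44 to 6.46, adjusted p = 3.28e-08). The gene lies on chromosome 5.

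Hmgn3, a nucleosome-binding protein of the high mobility group that lies on chromosome 9, came next. Its intensities were 1064, 905 and 988 in B117P, 228, 148 and 160.0 in B117H, 344, 573 and 674 in B140P and 3454, 3094 and 3228 in B140H. B140H held the highest level of the 4 lines and B117H the lowest. The changes of -2.48 and 2.67 gave a difference of 5.15 (95% interval 4.49 to 5.81, adjusted p = 8.55e-07). A dimmer Hmgn3 probe set changed by -2.51 and 2.85.

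Hp encodes haptoglobin, a haemoglobin-binding protein stored in neutrophil granules, and F13a1 encodes the A chain of coagulation factor XIII, made by monocytes and macrophages. Hp stood at 992, 1151 and 1473 units in B117P, 402, 362 and 405 in B117H, 208, 223 and 247 in B140P and 2256, 2063 and 1549.5 in B140H. F13a1 stood at 309, 768 and 722 units in B117P, 87.2, 84.2 and 106 in B117H, 1249, 987 and 1285 in B140P and 7806, 4230.0 and 3274 in B140H. Neither gene had overlapping arrays in either pair, although the arrays of F13a1 were widely spread within B117P and within B140H. Hp changed by -1.61 and 3.09, a difference of 4.70 (adjusted p = 1.35e-07). F13a1 changed by -2.58 and 2.03, a difference of 4.61 (95% interval 3.58 to 5.64, adjusted p = 7.85e-05).

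The myeloid transcription factors Gfi1 and Irf8 also rose in B140H and fell in B117H. Gfi1, a repressor needed for neutrophil maturation, measured 329.8, 566 and 400.1 units in B117P, 119.9, 152 and 164 in B117H, 78.2, 63.8 and 61.7 in B140P and 127, 98.3 and 144 in B140H. B140H lay above its parental line, and its arrays overlapped those of B117H. Gfi1 changed by -1.54 and 0.84, a difference of 2.38 (adjusted p = 0.000217). Its rise in B140H was not called without either B140H A (adjusted p = 0.0878), B140H C (0.0925), B140P B (0.111) or B140P C (0.114), nor with quantile normalization applied again (0.0651) or arrays centred on their medians (0.0576). Irf8, the factor of monocytes and dendritic cells, was far brighter, at 5546, 5319 and 5785 units in B117P and 2816, 2689 and 2678 in B117H. It measured 5155, 4201 and 5599 units in B140P and 9399, 7407 and 8476 in B140H, and its arrays were clearly apart in both pairs. The changes of Irf8 were -1.02 and 0.76, and the difference was 1.78 (SE 0.17, adjusted p = 3.47e-05). Its rise in B140H was not called without all A arrays (adjusted p = 0.0597). A second, dimmer Irf8 probe set changed by -0.96 and 0.80. Its difference was called (adjusted p = 0.00826), but its rise in B140H was not (0.111).

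Cd24a encodes a small surface glycoprotein of immature B cells and granulocytes. Its intensities were 11156, 12606 and 12788 in B117P, 2434, 3109.7 and 3435 in B117H, 6898, 13161 and 14774 in B140P and 18078, 22342 and 20973 in B140H. The fall in B117H was wide, while array A of B140P lay far below the other B140P arrays. The changes were -2.04 and 0.89, and the difference was 2.92 (adjusted p = 0.000142). The rise in B140H had an adjusted p of 0.0469 and was lost when any single array other than B140P C was left out (adjusted p up to 0.152, without B140H B), so for Cd24a the opposite direction rests on a call at the threshold while the difference does not. A second Cd24a probe set changed by -1.98 and 1.01 (adjusted p = 0.00283 for the latter), and the third by -1.54 and 0.14, neither of which was called.

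The other genes that rose in B140H and fell in B117H under the naming rule were of varied roles. Ttc39c, a tetratricopeptide repeat gene, changed by -0.94 in B117H and 2.08 in B140H. Its dimmer probe sets changed by -0.15 and 0.18 and by -0.11 and 0.56, with the difference called for neither (adjusted p = 0.329 and 0.0677). Tubb2a, a beta-tubulin, changed by -0.63 and 1.89, Cpn1, a subunit of the plasma carboxypeptidase N, by -0.87 and 1.64, and Gcsam, a signalling protein of germinal centre B cells, by -0.87 and 1.53. Cd28, the costimulatory receptor of T cells, changed by -1.32 and 1.08, and Myom1, a myomesin of muscle, by -0.78 and 1.61. Differences for these 6 genes ran from 2.39 to 3.02. Some of the smaller changes were lost on leaving out 1 array. A second, dimmer Tubb2a probe set changed by -0.25 and 0.21, neither called (adjusted p = 0.413 and 0.52). A dimmer Cpn1 probe set changed by 0.05 and 0.39, and its difference was not called (adjusted p = 0.386). The fall of Tubb2a was not called without B117P B (adjusted p = 0.109), B117P C (0.0803) or B117H C (0.116). The rise of Cd28 was not called without B140P B (0.0544), B140P C (0.0794) or B140H B (0.0597). The fall of Myom1 was not called without B117P A (0.0552), B117P B (0.124), B117P C (0.131), B117H B (0.141), B117H C (0.0855) or B140P B (0.0551).

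**Figure D2:**
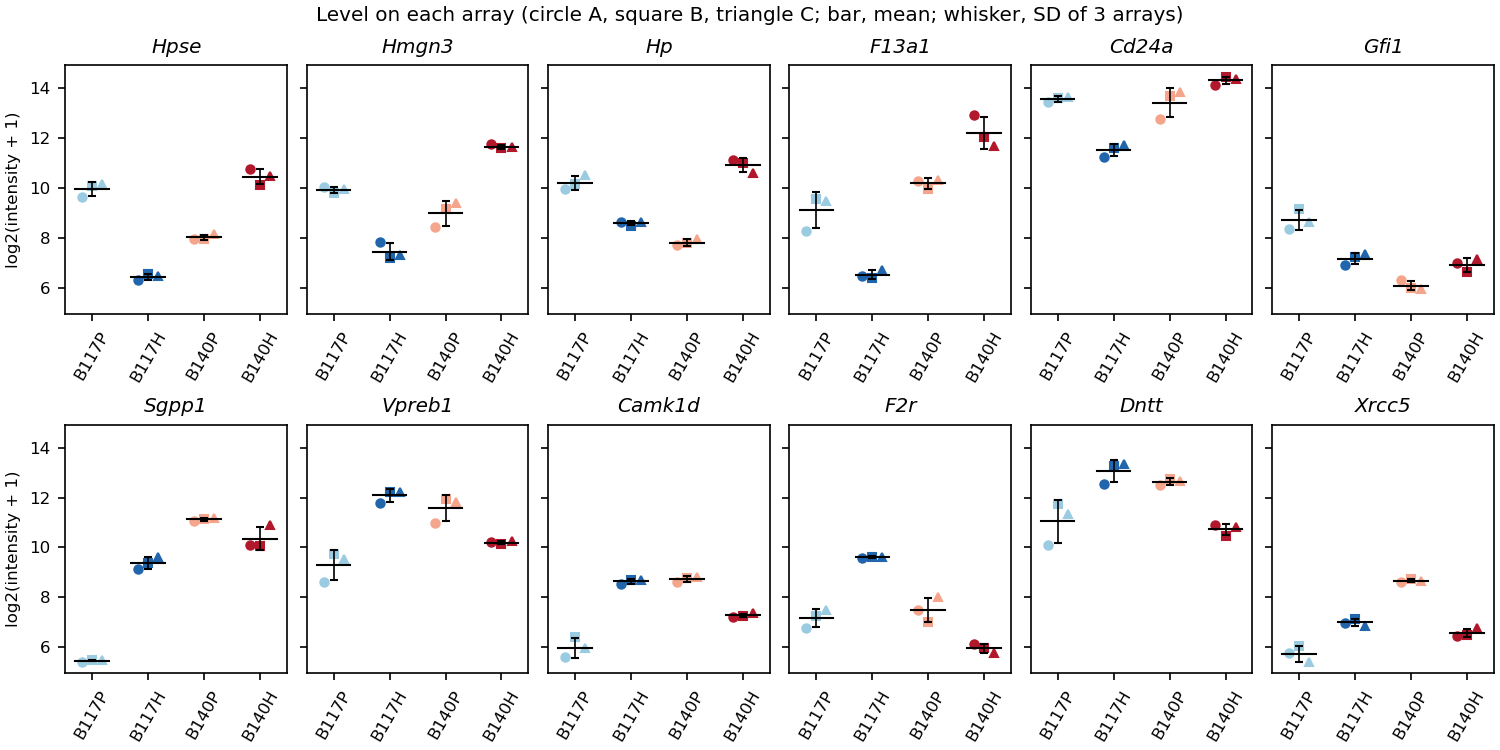
Log2 intensity of 12 opposite genes on each array. Each panel is 1 gene, circles, squares and triangles are arrays A, B and C of each line, the bar is the mean and the whisker the SD of 3 arrays. In the upper row the B117H arrays lie below and the B140H arrays above their own parental arrays, and in the lower row the reverse holds, with Sgpp1 rising from 42.1 to 44.0 units in B117P to 563 to 780.5 in B117H.

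In the reverse direction Sgpp1 had the largest difference. It encodes a phosphatase of the endoplasmic reticulum that dephosphorylates sphingosine 1-phosphate, and it lies on chromosome 12. Sgpp1 measured 42.1, 43.7 and 44.0 units in B117P and 563, 670.1 and 780.5 in B117H. It measured 2152, 2269.5 and 2306 units in B140P and 1101, 1067 and 1911 in B140H. The B117H arrays lay far above the low B117P signal, whereas array C of B140H remained close to its parental arrays. The changes were 3.91 and -0.78, and the difference was -4.69 (SE 0.27, adjusted p = 5.86e-07). Leaving out B140H B (adjusted p = 0.129), B140P C (0.109), B140H A (0.125), B117H B (0.0507), B140P B (0.108), B117P C (0.0511) or B140P A (0.0848) ended the call of the fall in B140H. A second probe set changed by 4.03 and -0.86. The remaining Sgpp1 probe set changed by only 0.89 and -0.43, and its fall in B140H was not called (adjusted p = 0.154).

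Vpreb1 and Dntt are genes of lymphoid progenitors. Vpreb1 encodes part of the surrogate light chain of the pre-B-cell receptor, and Dntt encodes terminal deoxynucleotidyl transferase, which adds bases at the joins of antigen receptor genes. Vpreb1 measured 391, 862 and 745 units in B117P, 3549.8, 4836 and 4768 in B117H, 2044, 3930.5 and 3630.3 in B140P and 1189, 1114 and 1208 in B140H. Dntt measured 1088, 3437 and 2568 units in B117P, 5988, 9850.3 and 10462 in B117H, 5782, 6897 and 6445 in B140P and 1885, 1423 and 1811 in B140H. Both genes were clear of overlap in both pairs, with array A lowest in B117P and in B117H for both. Vpreb1 changed by 2.78 and -1.40, a difference of -4.18 (95% interval -5.04 to -3.31, adjusted p = 4.03e-05). Its fall in B140H was not called without B140P B (adjusted p = 0.0623) or B140P C (0.0561). Dntt changed by 2.002 and -1.91, a difference of -3.91 (adjusted p = 0.000254), and its other probe sets changed by 2.43 and -2.21 and by 1.75 and -1.85.

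Xrcc5 encodes the larger subunit of the Ku heterodimer, which binds broken DNA ends for end joining. Its intensities were 53, 64.5 and 41.4 in B117P, 125, 140.3 and 116 in B117H, 386, 426 and 407 in B140P and 87.5, 88.3 and 108 in B140H. Both resistant lines thus ended between the parental lines, B117H after a rise and B140H after a fall. The gene had 1 probe set, and it was dim outside B140P. The B117P signal lay about the lower quartiles of those arrays (50.8 to 53.7 units), and the B140H signal lay below the medians of its arrays. The changes of 1.27 and -2.10 gave a difference of -3.36 (95% interval -3.81 to -2.92, adjusted p = 1.32e-06). The resistant lines differed by -0.43 from B117H to B140H (adjusted p = 0.0578), where the parental lines had differed by 2.94 (adjusted p = 9.67e-09).

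Several of the other genes act in signalling. Camk1d, a calmodulin-dependent kinase, measured 47.3, 83.5 and 61.6 units in B117P, 369.8, 419 and 411 in B117H, 386, 436 and 448 in B140P and 148, 153 and 163 in B140H. F2r, the thrombin receptor, measured 107, 153 and 179 units in B117P, 762, 791 and 788 in B117H, 181, 129 and 254 in B140P and 69.7, 60.9 and 53.5 in B140H. Both were several times brighter in B117H than in B117P and dimmer on every B140H array than on any B140P array. Camk1d changed by 2.66 and -1.45, a difference of -4.11 (adjusted p = 4.54e-07). A second Camk1d probe set changed by 1.69 and -1.16, both called, and the dimmest by 0.46 and -0.52, its difference not called (adjusted p = 0.273). F2r changed by 2.44 and -1.55, a difference of -3.99 (adjusted p = 9.98e-06). Angpt1, which encodes angiopoietin-1, the ligand of the Tie2 receptor, changed by 1.45 and -1.44 (difference -2.90, adjusted p = 1.43e-06). A dimmer Angpt1 probe set changed by 1.09 and -0.31, and its difference was not called (adjusted p = 0.0609).

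Crem and Creb5 encode transcription factors of the cyclic AMP response element family. Crem measured 92.7, 98.6 and 96.8 units in B117P, 528, 631 and 714 in B117H, 158, 127 and 119.97 in B140P and 81.0, 67.7 and 67.5 in B140H. The B117H arrays stood far above all others, and the fall in B140H was from a low level. Crem changed by 2.68 and -0.89 (difference -3.57, adjusted p = 3.08e-07), but its second probe set changed by 1.49 and -0.11, and averaged over its 4 probe sets the change in B140H was -0.13 (adjusted p = 0.528). Creb5 changed by 1.68 and -1.61 (difference -3.29, adjusted p = 0.00113). Its fall in B140H was not called without B140H C (adjusted p = 0.0622). Averaged over its probe sets that fall was -0.38, also not called (0.0562). The dimmer Creb5 probe sets changed by 0.28 and 0.24, by 0.11 and 0.08, and by 0.30 and -0.25. None of them had a called difference (adjusted p = 0.9605, 0.956 and 0.0641), so the opposite change of Creb5 rests on its brightest probe set.

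The remaining genes complete the named set in this direction. Gnpda2, a deaminase that converts glucosamine 6-phosphate to fructose 6-phosphate, changed by 0.63 in B117H and -2.95 in B140H, and its rise was not called without B117P B (adjusted p = 0.0508) or B117H C (0.0547). A second Gnpda2 probe set changed by 0.67, not called, and -3.32. The dimmest changed by -0.08 and -0.59, its difference not called (adjusted p = 0.164). Fgfbp3, a carrier protein of fibroblast growth factors, changed by 1.41 and -1.33. Mipol1, a coiled-coil gene of chromosome 12, changed by 0.85 and -1.74, and averaged over its probe sets its rise was 0.31 (adjusted p = 0.0992). The differences were -3.58, -2.73 and -2.59.

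**Figure D3:**
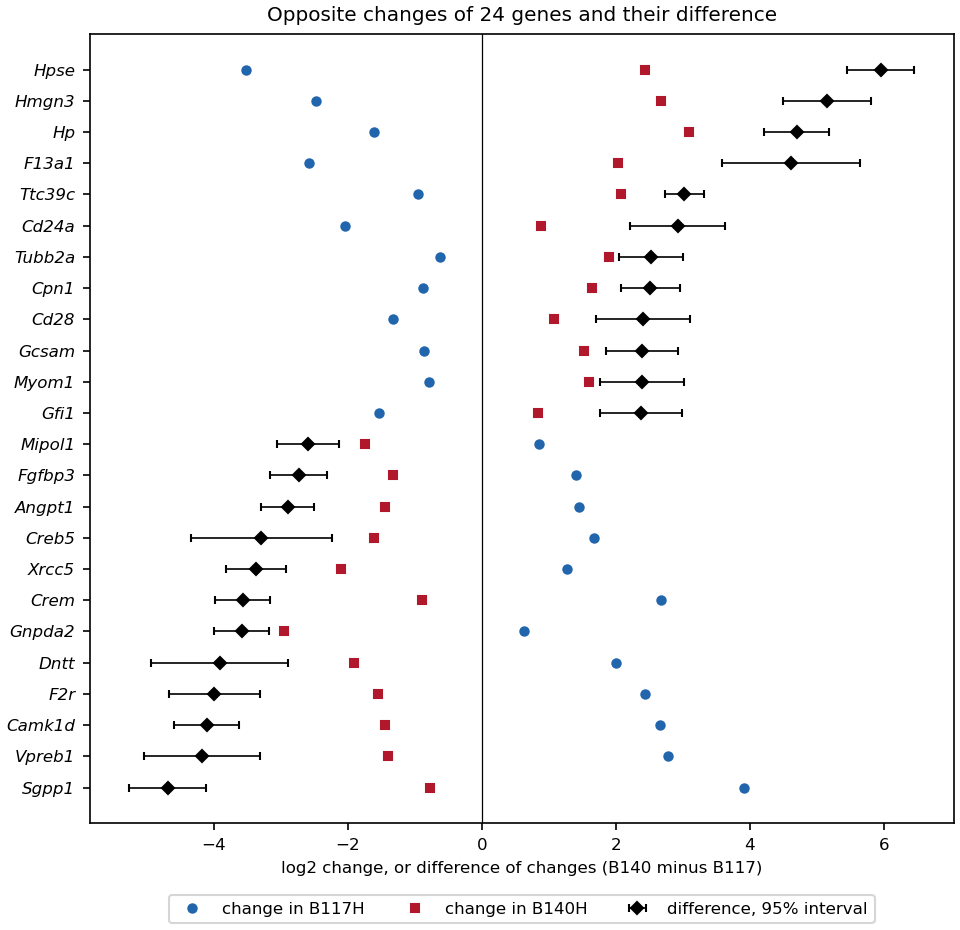
Change in B117H (circles), change in B140H (squares) and their difference, B140 minus B117 (diamonds, with 95% intervals), in log2 units for opposite genes. Shown are the 12 per direction with the largest difference among those whose arrays did not overlap in either pair, predicted genes left out. Klrd1, with a difference of -3.39, is absent because its arrays overlapped in the B140 pair. The circles and squares of each gene lie on opposite sides of 0, and the differences run from -4.69 for Sgpp1 to 5.95 for Hpse.

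The sequence around the start site is shown for the gene with the largest difference in each direction, Hpse and Sgpp1, and for a myeloid and a lymphoid gene of opposite behaviour, F13a1 and Vpreb1. The windows hold 250 bases before and 50 after the annotated start, come from RefSeq on GRCm38.p6 and are written 5′ to 3′ on the gene's strand. Capitals mark matches, on either strand, to the motifs searched, namely TATAAA (the TATA box), CCAAT (bound by NF-Y), GGGCGG (the GC box of Sp1), TGACGTCA (the cyclic AMP response element), TGANTCA (the AP-1 site), GAGGAA (a core of Ets family sites) and CACGTG (the E-box of Myc), none of which contains another. The first is Hpse, chr5:100719667-100719966, minus strand, with GGGCGG in capitals. The second is F13a1, chr13:37050195-37050494, minus strand, with the reverse complement of CCAAT and 2 copies of GAGGAA.
Hpse: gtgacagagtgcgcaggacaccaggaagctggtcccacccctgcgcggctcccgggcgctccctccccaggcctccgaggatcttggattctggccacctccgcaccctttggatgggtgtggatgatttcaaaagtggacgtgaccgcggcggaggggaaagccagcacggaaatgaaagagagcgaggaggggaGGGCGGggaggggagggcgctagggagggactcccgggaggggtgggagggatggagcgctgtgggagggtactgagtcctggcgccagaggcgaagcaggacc
F13a1: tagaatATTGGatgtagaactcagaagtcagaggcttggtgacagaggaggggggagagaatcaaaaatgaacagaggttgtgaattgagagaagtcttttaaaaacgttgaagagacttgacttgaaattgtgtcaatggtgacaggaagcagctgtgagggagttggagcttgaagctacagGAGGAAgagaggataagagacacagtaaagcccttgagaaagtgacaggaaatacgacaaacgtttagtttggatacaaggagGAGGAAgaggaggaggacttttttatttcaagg

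Of the genes that rose in B117H and fell in B140H, Sgpp1 (chr12:75735680-75735979, minus strand) held CCAAT and Vpreb1 (chr16:16869206-16869505, minus strand) held GAGGAA on the reverse strand.
Sgpp1: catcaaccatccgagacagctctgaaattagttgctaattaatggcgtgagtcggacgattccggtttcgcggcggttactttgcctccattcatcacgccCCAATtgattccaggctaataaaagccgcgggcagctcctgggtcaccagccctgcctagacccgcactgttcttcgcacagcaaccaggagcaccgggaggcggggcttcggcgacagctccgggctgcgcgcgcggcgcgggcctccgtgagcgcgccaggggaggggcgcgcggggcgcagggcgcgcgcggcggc
Vpreb1: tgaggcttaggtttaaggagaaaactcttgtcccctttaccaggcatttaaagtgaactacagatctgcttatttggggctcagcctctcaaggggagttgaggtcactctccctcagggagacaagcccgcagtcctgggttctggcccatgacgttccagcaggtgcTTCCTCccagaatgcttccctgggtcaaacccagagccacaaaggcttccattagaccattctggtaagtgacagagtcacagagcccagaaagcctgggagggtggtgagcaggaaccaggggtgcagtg

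The 4 windows differed in base composition. Those of Hpse and Sgpp1 had 67.0% and 66.0% G and C with 19 and 36 CpG dinucleotides, and those of F13a1 and Vpreb1 had 42.67% and 54.0% with 3 and 2. Windows were found for 54 of the 65 genes that rose in B140H (67 windows) and for 86 of the 101 that fell (121 windows). CCAAT was held by 25.4% and 39.7% of these windows, against 37.4% of the 18109 windows of all measured genes. GGGCGG was held by 58.2% and 46.3%, against 52.3%. TGACGTCA was held by 4.48% and 2.48%, against 2.49%, and GAGGAA by 23.9% and 22.3%, against 27.1%. CACGTG was held by 2.99% and 9.92%, against 8.72%, TGANTCA by 1.49% and 8.26%, against 6.38%, and TATAAA by 4.48% and 6.61%, against 9.77%. These matches are descriptions of letters in a window.

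The lineages were also compared among the parental lines and among the resistant lines. For 109 of the 166 opposite genes the parental lines differed, and for 139 the resistant lines did. Over all 18193 genes these counts were 4333 and 4911. The order of the lineages was swapped for 55 genes, with both differences called and opposite in sign, and kept for 27. In another 57 only the resistant lines differed and in 27 only the parental ones. Over all 18193 genes 168 were swapped and 2640 kept, while only the resistant lines differed for 2103 and only the parental ones for 1525. These contrasts use the same arrays as the changes. The difference of the changes also equals the resistant gap minus the parental gap, so its call favours a called gap. The counts therefore describe the selected genes. Hpse was lower in B140P than in B117P by 1.93 and higher in B140H than in B117H by 4.02. Vpreb1 was swapped the other way, 2.28 higher in B140P than in B117P and with B140H at -1.89 against B117H. F2r, Irf8, Cd24a and Ccne1 had parental lines that were not called different (adjusted p from 0.18 to 0.834), and resistant lines that were.

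Larger differences also arose where 1 pair changed alone or both changed unequally. Of the 1896 called differences, 1124 had opposite signs with 1 pair called (690 in B117H and 434 in B140H), 270 had opposite signs with no pair called, and 336 had the same sign. S100a10, the partner of annexin A2, changed by -0.24 in B117H and -5.47 in B140H. Glul, glutamine synthetase, changed by 5.35 and 0.24, from a log2 level of 4.11 in B117P to 9.46 in B117H, next to the 9.70 and 9.94 of the B140 lines. Dck, deoxycytidine kinase, fell in both lines by its brightest probe set, by 7.96 and 3.04, a difference of 4.92 (adjusted p = 2.56e-08) that is not exact because its B117H signal was near the floor, and the third probe set gave a difference of -1.28 (adjusted p = 0.00551). Nsd1, a histone methyltransferase, changed by -3.04 and 0.03. At least 2-fold differences were called for 659 genes and at least 4-fold for 100, of which 32 were opposite genes.

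The opposite genes on the myeloid lists were Hp, F13a1, Irf8 and Gfi1. Over all genes 10.4% had a called difference, 4.91% with the B140 change above and 5.51% below, 0.912% were opposite, and 9.41% changed in B117H and 6.56% in B140H. Of 23 measured neutrophil granule genes 8 had a called difference (34.8%), 7 with the B140 change above and 1, Mpo, below. In B117H 0 members rose and 7 fell, and in B140H 3 rose and 1 fell. The median difference of the list was 0.40, against 0.06 over all genes. Besides Hp these were led by Ms4a3, a membrane protein of granulocyte precursors, at -3.03 and 0.15, and by Mmp8, neutrophil collagenase, at -0.25 and 1.93. Ms4a3 was already dim in B140P, at 95.6 to 112 units against array medians of 118 to 131, which left little room for a fall there. Of 33 monocyte and macrophage genes 11 were called (33.3%), 8 above and 3 below, F13a1 and Irf8 being the opposite ones. In B117H 2 rose and 11 fell, and in B140H 4 rose and 3 fell. Mpeg1, a pore-forming protein of macrophages, changed by -0.06 and 2.02, and Ms4a6d by -2.63 and -0.10. Of 36 myeloid transcription factors 7 were called (19.4%), 5 above and 2 below, and Cebpb, a factor of myeloid maturation, changed by -1.54 and 0.00. Summed over the granule list the arrays ran from 75839 to 85089 units in B117P, 48496 to 49740 in B117H, 21806 to 22783 in B140P and 24811 to 27727 in B140H, and the part of this in single genes was not tested.

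Lymphoid genes went both ways. Of 23 B lymphoid genes 10 were called (43.5%, against 10.4% over all genes), 3 above and 7 below, and 3, Vpreb1, Dntt and Cd24a, were opposite, against 0.912% over all genes. The list's median difference was -0.42. In B117H 8 members rose and 2 fell, and in B140H 2 rose and 4 fell. The list's summed level ran from 21344 to 27225 units in B117P, 25422 to 35186 in B117H, 36735 to 53666 in B140P and 47067 to 56571 in B140H. Bright genes weigh most in this sum. Cd24a alone measured 6898 to 14774 units in B140P and 18078 to 22342 in B140H, and the part of single genes was not tested. Of 21 T and NK lymphoid genes 1 was called (4.76%), Cd28. Among 25 dendritic cell and antigen presentation genes 1 was called (4%), Itgax, at 2.96 and 0.03. Of 20 stromal and endothelial genes 2 were called (10%), and of 17 erythroid and megakaryocyte genes and 18 mast cell, basophil and eosinophil genes limma called 0, with 4 and 2 at an unadjusted p under 0.05.

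In the interferon response 13 of 43 genes (30.2%) had a called difference, against 10.4% over all genes, and the B140 change lay above the B117 change for 12 of the 13. None of the 43 was opposite, a count near the 0.912% of all genes that were. In B117H 14 of its members fell and 3 rose, and in B140H 5 rose and 1 fell. Rtp4 changed by -1.71 in B117H and 0.17 in B140H, Usp18, which removes ISG15 from proteins, by -1.29 and 0.41, and Oasl2 by -1.15 and 0.27. None of these 3 changes in B140H was called (adjusted p from 0.354 to 0.855). Of 21 Toll-like and Fc receptor genes 4 were called (19.0%), all above, and of 24 NF-kB and inflammatory genes 3 (12.5%, near the background), 1 above and 2 below. Ptgs2, cyclooxygenase-2, changed by -2.07 and 0.23. Of 16 retrovirus restriction genes 2 were called (12.5%, also near the background), Serinc5 at 0.77 and 2.93 and Setdb1 at -0.06 and -0.82.

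Among surface molecules and receptors, 9 of 27 integrin and adhesion genes were called (33.3%, against 10.4% over all genes), 5 above and 4 below. Icam1, the ligand of beta-2 integrins, was opposite, at 0.46 and -0.72, with a rise in B117H at the threshold (adjusted p = 0.0447) that was lost in 10 of the 12 fits without 1 array (adjusted p up to 0.163, without B117P A). Of 26 cytokine receptors and stem cell antigens 4 were called (15.4%), 1 above and 3 below. Tgfbr1, the type I receptor of TGF-beta, was opposite at 0.49 and -0.88, a rise lost in 8 of those fits (up to 0.145, without B117P A). Averaged over the Tgfbr1 probe sets the rise was 0.21, not called (adjusted p = 0.131). The dimmer Tgfbr1 probe sets changed by -0.02 and -0.04 and by 0.16 and -0.17, with the difference called for neither (adjusted p = 0.9625 and 0.1495). Tgfbr2, the chain that pairs with Tgfbr1 and was also opposite, changed by 0.35 and -0.62. Csf2ra, a GM-CSF receptor chain, changed by -1.15 and 0.35. Of 22 heparan sulfate and matrix genes 4 were called (18.2%), with Hpse the opposite one, and Extl3, a heparan sulfate polymerase gene, at 0.22 and -0.85. Of 17 annexin and S100 genes 4 were called (23.5%), all below, with S100a6, the opposite one, at 0.79 and -0.44 and S100a1 at 0.24 and -1.73. Tgfbr2 and S100a6 lie outside the naming rule and were chosen after their values were seen.

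Among genes of drug handling and DNA repair, Dck had the largest difference. Of 14 genes of Ara-C uptake and activation limma called 1, Dck (7.14%, near the 10.4% over all genes). Of 18 genes of Ara-C inactivation and competing nucleotide pools it called 0, with 8 at an unadjusted p under 0.05. Of 17 drug efflux transporters 4 were called (23.5%), all above. Abcb6, a transporter of porphyrins, was opposite at -0.73 and 0.45, and its rise was lost in 7 of the 12 fits without 1 array (adjusted p up to 0.149, without B140P A). Abcc2 changed by -1.71 and 0.03 and Abcb4 by 0.33 and 1.04. Of 18 genes of end joining and break repair 4 were called (22.2%), 1 above and 3 below, with Xrcc5 and Dntt opposite and Poll, a polymerase of end joining, at -0.82 and 0.09. Of 23 excision and mismatch repair genes 2 were called (8.70%) and of 45 replication genes 7 (15.6%), 3 above and 4 below. Gmnn, the inhibitor of replication licensing, changed by -0.67 and 0.28.

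Cell cycle, chromatin and survival genes included Ccne1 and Hmgn3 as opposite members. Of 37 mitosis and cell cycle genes 5 were called (13.5%, near the 10.4% over all genes). Ccne1, the cyclin E1 that drives entry into S phase, was opposite, at 1154, 1155 and 949 units in B117P, 575, 513 and 582 in B117H, 837, 933 and 967 in B140P and 1489, 1664 and 1379 in B140H. The arrays did not overlap in either pair, and the changes of -0.96 and 0.73 gave a difference of 1.68 (adjusted p = 3.51e-05). Of 31 polycomb and DNA methylation genes 9 were called (29.0%), 3 above and 6 below, with Epop at 0.00 and -3.69, Sfmbt2 at -0.08 and -3.43 and the DNA methyltransferase gene Dnmt3a at 1.04 and -0.14. Epop measured 23.5 to 27.7 units in the B117 lines, below the lower quartile of every array (50.8 or more), so a fall there could hardly be seen. Of 30 histone methylation enzymes 4 were called (13.3%, again near the background). Of 7 high mobility group and linker histone genes 4 were called (57.1%), 2 above and 2 below, with Hmgn3 the opposite one. Of 30 apoptosis regulators 6 were called (20%), 2 above and 4 below, with Ripk3, a kinase of necroptosis, at 0.30 and -1.31, Bcl2 at 0.02 and 1.04 and Mcl1 at 0.05 and -0.86. Of 25 p53 targets 1 was called (4%).

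Among the metabolic lists Sgpp1 was the opposite member. Of 28 cholesterol genes 7 were called (25%, against 10.4% over all genes), 2 above and 5 below, with a median change of 0.45 in B117H. Fdft1, squalene synthase, changed by 1.07 and -0.26 and Mvd by 1.41 and 0.21. Of 29 fatty acid genes 9 were called (31.0%), 4 above and 5 below, with Hacd1 at -0.36 and -2.76, Elovl6 at -0.25 and -2.44 and Acss2 at 2.87 and 0.54. Of 29 sphingolipid and eicosanoid enzymes 6 were called (20.7%), with Sgpp1 the opposite one and Hpgd, which degrades prostaglandins, at -3.79 and -0.21. Of 29 glycolysis and hypoxia genes 5 were called (17.2%), 3 above and 2 below, with the muscle-type phosphorylase kinase subunit Phka1 at 0.03 and 2.33 and the hexokinase gene Hk3 at -1.35 and 0.22. Near or below the background were 23 glutamine, glutamate and serine genes (3 called, 13%), 40 oxidative phosphorylation genes (3, 7.5%), 31 proteasome subunits (3, 9.68%) and 26 unfolded protein and amino acid response genes (2, 7.69%). Of 6 genes of the Y chromosome and Xist 1, Uty, was called, at -3.82 and -0.35.

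The opposite genes were unevenly spread over the chromosomes. Chromosome 12 held 24 of the genes that rose in B117H and fell in B140H, or 3.86% of its 622 measured genes against 0.555% over all chromosomes, and 0 of the reverse kind. Chromosome 16 held 14 genes that fell in B117H and rose in B140H, or 2.36% of 593 against 0.361%, and 1, Vpreb1, of the reverse kind. Chromosome 9 held 14 of the first kind and 1, Hmgn3, of the second, and chromosomes 13 and 5 each held 8 of the second kind and 2 of the first. The called differences followed the same chromosomes. On chromosome 12 the B140 change lay below the B117 change for 26.8% of genes, against 5.55% over all chromosomes. On chromosomes 16, 13 and 5 it lay above for 19.1%, 17.8% and 12.1%, against 4.95%, and on chromosomes 14, 9 and 3 it lay below for 13.7%, 12.2% and 10.2%. Chromosome was assigned from the RefSeq gene table, and these shares carry no test.

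**Figure D4:**
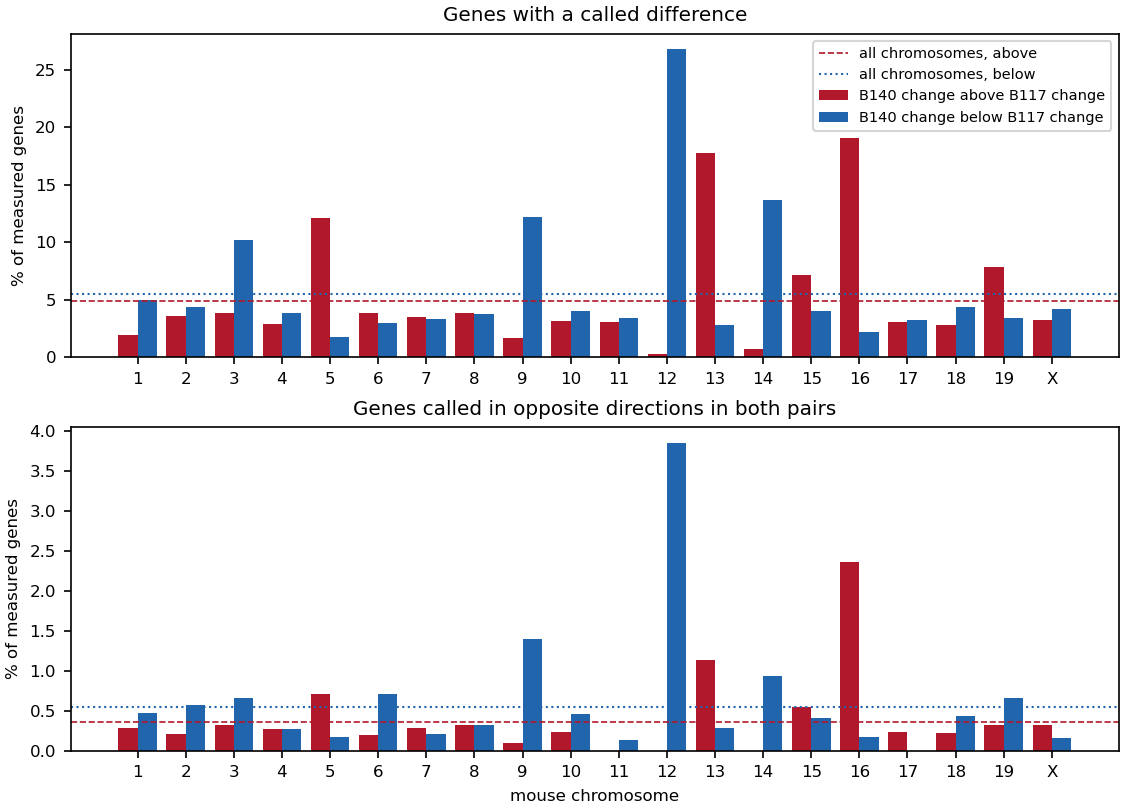
Percent of measured genes per mouse chromosome with a called difference (upper) and with opposite changes called in both pairs (lower). The left bar of each chromosome gives genes whose B140 change lay above the B117 change and the right bar those below, and the dashed and dotted lines give the same over all chromosomes. Chromosome 12 reaches 26.8% and 3.86% below, and chromosome 16 19.1% and 2.36% above.

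On chromosomes 12 and 16 the shift was broad and small. The median change of chromosome 12 was 0.11 in B117H and -0.05 in B140H, against 0.00 and 0.05 over all chromosomes, and 70.7% of its genes had a change above 0 in B117H against 48.6%. The median change of chromosome 16 was -0.12 and 0.08, and 27.8% of its genes were above 0 in B117H. In B140H 55.9% of chromosome 12 genes and 32.2% of chromosome 16 genes were below 0, against 37.4% over all chromosomes. The chromosome 16 values in B140H thus lay near those over all chromosomes. The median difference on chromosome 12 was -0.34, -0.10 and -0.21 from the arrays lettered A, B and C, against -0.04, 0.15 and 0.04 over all chromosomes. For chromosome 16 it was 0.15, 0.31 and 0.19. In running medians over 25 consecutive measured genes, 435 of 598 windows on chromosome 12 were above 0 in B117H and below 0 in B140H, and 517 of 569 on chromosome 16 were the reverse. The reverse also held for 371 of 678 windows on chromosome 13, where 57 went the way of chromosome 12. On chromosome 9 the directions were nearly even, with 302 of 978 windows the reverse way and 299 the way of chromosome 12. The median over all chromosomes was itself above 0 in B140H, so the chromosome 16 count rests mostly on B117H. Opposite genes that directly followed each other in gene order were Raph1 and Cd28 on chromosome 1, Gtf2b and Pkn2 on chromosome 3, and Snx4 and a Riken gene on chromosome 16, each pair with the same direction.

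**Figure D5:**
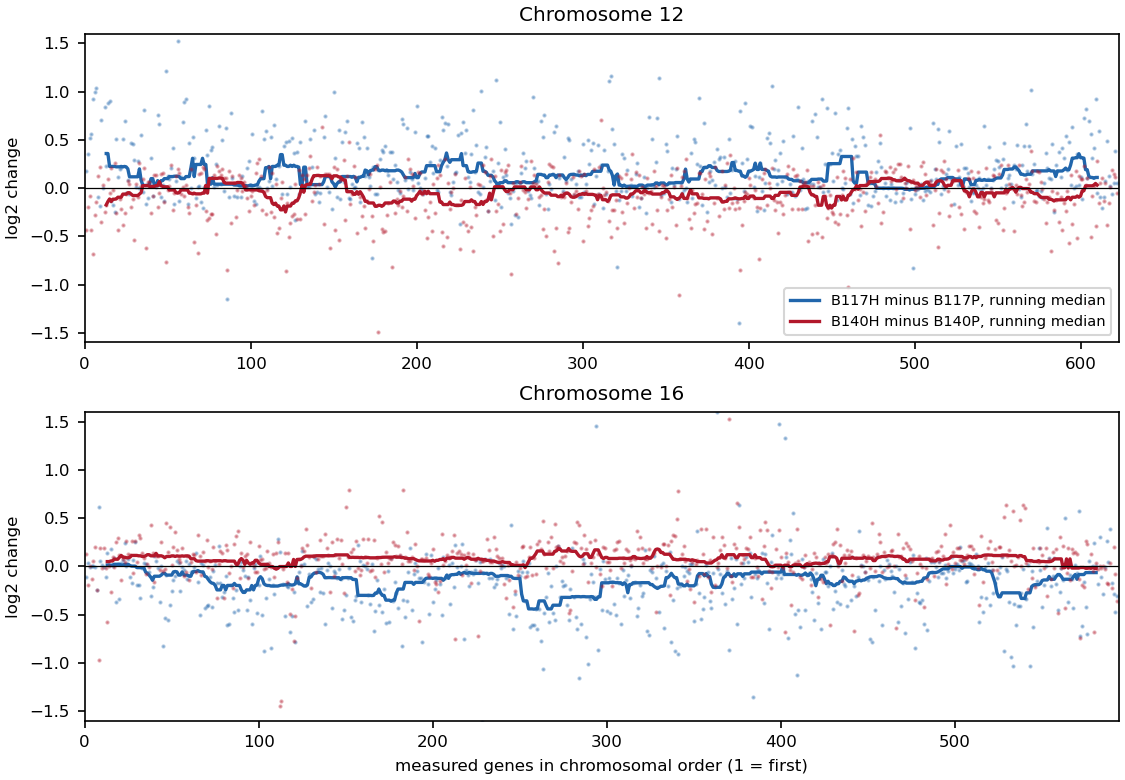
Log2 change of each measured gene on chromosomes 12 and 16 (points, in gene order) and the running median over 25 genes (lines) in both lineages. The vertical axis ends at 1.6, beyond which some points of single genes lie. The B117 line runs mostly above and the B140 line mostly below 0 on chromosome 12, and the reverse holds on chromosome 16.

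Genes with more than 1 probe set offered a second reading of the same RNA. Of the 166 opposite genes 92 had others, in all 185 probe sets with a median log2 level of 7.32, against 9.77 for the brightest ones. The difference was called in the same direction for 72 of them and in the other direction for 0 (limma), and 26 were also opposite with both pairs called. For 57 of the 92 genes at least 1 other probe set had the difference called in the same direction. Over all probe sets 286 were opposite, 26 of them without a gene symbol.

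The threshold cut through a continuous range. Just inside it lay Klrd1, an NK cell receptor chain, whose fall in B140H of 1.48 had an adjusted p of 0.0497, and Pcyt1a, an enzyme of phosphatidylcholine synthesis, whose rise of 0.44 there had 0.0487. Just outside lay Peak1, a kinase-like scaffold, with changes of 0.49 (adjusted p = 0.0508) and -1.59, and Med28, a Mediator subunit, with -0.78 and 0.31 (0.0516).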

How the data were processed

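Total RNA of 4 lines was measured on 12 one-colour arrays with Affymetrix-type probe sets. The deposited intensity values were summarised with RMA, per the submitters' processing notes; its version is not given in the sources used here, nor is a genome build. RMA shrinks differences near the floor, so folds of dim probe sets are too small. The linear scale was read from the values (7.65 to 36675).

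After 64 array controls were left out, 45037 of 45101 probe sets were tested as log2(value + 1) in limma 3.58.1 (R 4.3.3), with 1 coefficient per line, no term for the array letter and two-sided moderated tests. Residual degrees of freedom were 8, with 4.65 from the prior, and the median 95% interval of the difference reached 0.38 log2 units to either side. The number of arrays limits this precision. The platform annotation gave 1 symbol to 34945 probe sets, several to 932 and none to 9160. A gene was its brightest one-symbol probe set. RefSeq tables (GRCm38.p6) matched 18032 genes and changed 0 symbols. The fit was also run on simulated arrays with planted differences and independent noise. That run held no shared deviation of same-letter arrays, so it does not show how the fit behaves with one.

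The members, gene lists and naming rule were chosen with earlier results of these data known. Named are the 12 opposite genes per direction with the largest difference and arrays apart in both pairs, 5 same-signed genes, 5 per direction with 1 pair called, up to 3 called genes per list and the genes beside the threshold. Alternatives were other pseudocounts, quantile normalization again, centring on medians, array weights, a filter on dim probe sets, an intensity trend and robust priors in eBayes, means of probe sets, no _s_at, _x_at or _a_at probe sets, stricter thresholds, the letter as a block and leaving out arrays.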

Additional observations from a re-analysis of the deposited data

Results flagged for a closer look

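The count of 166 genes with opposite changes is listed because the change of the resistant line differed between the lineages by limma's test of the difference itself. The same test put forward single genes, each with opposite changes in which every resistant array lay apart from its parental arrays. Where B140H rose and B117H fell, the differences were 5.95 for Hpse, 5.15 for Hmgn3, 4.70 for Hp, 4.61 for F13a1, 3.02 for Ttc39c and 2.92 for Cd24a. They were 2.52 for Tubb2a, 2.52 for Cpn1, 2.40 for Cd28, 2.39 for Gcsam, 2.39 for Myom1 and 2.38 for Gfi1. Where B140H fell and B117H rose, they were -4.69 for Sgpp1, -4.18 for Vpreb1, -4.11 for Camk1d, -3.99 for F2r, -3.91 for Dntt and -3.58 for Gnpda2. They were -3.57 for Crem, -3.36 for Xrcc5, -3.29 for Creb5, -2.90 for Angpt1, -2.73 for Fgfbp3 and -2.59 for Mipol1.

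For 23 of these 24 genes the difference kept its call under every alternative run, and for Tubb2a it was lost when probe sets ending in _s_at, _x_at or _a_at were left out (adjusted p = 0.198). They were chosen for large differences, so this is a description. The opposite direction held less firmly. Only Hpse, Hmgn3, Hp, Camk1d, Xrcc5, Angpt1 and Fgfbp3 kept the calls of both pairs under every alternative that measured them. Each of the others lost the call of a pair under some alternative.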

How the results depend on the processing

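The 1896 called differences became 1006 at an adjusted p under 0.01, 248 against a fold of 1.5, and 904, 672 and 575 without all A, all B or all C arrays. The 166 opposite genes became 50 at 0.01, 7 against a fold of 1.5, and 46, 29 and 24 without all A, B or C arrays. Leaving out 1 array gave 1448 to 1879 differences and 91 to 150 opposite genes. With the letter as a replicate block the counts were 2739 and 311, all 166 among the latter. Deviations from the line means correlated above 0.1 for 16 of the 18 same-letter pairs of arrays (from -0.0432 to 0.587), the exceptions being B117P B with B117H B (0.0278) and with B140H B (-0.0432), and 10 of 12 arrays correlated best with their own letter in every other line. No label says what a letter stands for, and not every pair passed 0.1, so the letter was not taken as a pairing, although most same-letter arrays deviated together. The other settings stayed within 1.5 times of both counts, and the share of opposite genes that rose in B140H was 39.2%, or 32.4% with arrays centred on their medians. Both signs were kept under every alternative that measured the gene for 162 of the 166 genes. For 107 named genes, 2635 of 2875 combinations with an alternative kept direction and call, 238 lost the call, 87 of them without all arrays of 1 letter, and 2 reversed. Without _s_at, _x_at and _a_at probe sets another probe set stood for Birc3 (difference 0.0784, against -0.66) and Hmgn1 (-0.0465, against 0.68). No measure of background came with the intensities, so the floor of dim probe sets is unknown.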

Other observations

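Further opposite genes were chosen here after their values were seen, and no list or test stands behind the choice. Insr, the insulin receptor, changed by 0.67 in B117H and -0.56 in B140H, and Adcy6, an adenylyl cyclase that makes cyclic AMP, by 0.60 and -0.70. Ifnar2, a chain of the type I interferon receptor on chromosome 16, went the other way, at -0.88 and 0.51.

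Opposite genes of chromosome 12 were chosen in the same way. Dicer1, which cuts microRNA precursors, changed by 0.62 and -0.43, Papola, a poly(A) polymerase, by 0.61 and -0.61, and Pnn, a splicing-associated protein, by 0.44 and -0.44. Atxn3, a deubiquitinase, changed by 0.83 and -1.02 and Jdp2, a repressor of AP-1, by 0.80 and -0.85. On chromosome 3 the neighbours Gtf2b, a general transcription factor, and Pkn2, a protein kinase, changed by -1.02 and 0.81 and by -1.15 and 0.76.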
